A study of Homo sapiens with 6 samples.

Results

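Open chromatin around 8 progenitor and myeloid genes was compared between 6 established T-ALL lines. T-ALL, or T-cell acute lymphoblastic leukaemia, arises from developing thymocytes. The genes were SPI1, MEF2C, HHEX, MEIS1, GATA2, KIT, FLT3 and CD34, each with a window of hg19 around it. In hg19 coordinates the windows ran from 47355000 to 47425000 on chromosome 11 for SPI1, 87980000 to 88230000 on chromosome 5 for MEF2C, 94425000 to 94480000 on chromosome 10 for HHEX and 66635000 to 66825000 on chromosome 2 for MEIS1. Those of the other genes ran from 128180000 to 128235000 on chromosome 3 for GATA2, 55500000 to 55630000 on chromosome 4 for KIT, 28555000 to 28695000 on chromosome 13 for FLT3 and 208035000 to 208105000 on chromosome 1 for CD34. ATAC-seq cuts accessible DNA with the Tn5 transposase, and a peak is an interval where the authors' caller found more tags than in the local background. They comprised TALL-1, MOLT-4, KOPT-K1, HBP-ALL, DND-41 and CCRF-CEM, all grown in RPMI-1640 medium with serum, with 1 library per line and no treatment named. The labels give neither genotypes nor replicates, so no value has a replicate error, no p-value is given, and a difference between lines cannot be told apart from a difference between preparations. Peaks that overlapped by at least 1 bp between lines were merged into regions. A region was chosen if an interval in it overlapped a window, whatever its height. The 8 windows held 61 intervals in 28 merged regions, of 40110 merged regions in all.

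SPI1 encodes PU.1, an ETS factor that directs myeloid and B-cell fates and is shut down as thymocytes commit to the T lineage. GATA2, MEIS1, HHEX and MEF2C are transcription factors of blood stem cells and early progenitors, and HHEX and MEF2C are known in T-ALL for high expression in immature subtypes. KIT and FLT3 are receptor tyrosine kinases of progenitors, which bind stem cell factor and FLT3 ligand, and CD34 is a surface protein used to mark progenitors. As background on the lines, MOLT-4 is known for activation of TAL1, DND-41 for TLX3 and KOPT-K1 for LMO2, an oncogene whose known targets include HHEX.

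No annotation of hg19 was used here. Intervals are therefore given by position, and whether they lie at a promoter, exon or intron was not determined. For the same reason the T-cell identity of the lines was not checked against marker genes. To show what kind of start sites the genes have, the 250 bases before the RefSeq start of 3 of them are printed from build GRCh38.p14. FLT3 stands for the window with the highest-ranking peak, HHEX for a window with a peak in every line, and KIT for the window with a single peak. These coordinates belong to GRCh38.p14 and cannot be set beside the hg19 positions below. Capitals mark the GC box GGGCGG and the CCAAT box, on either strand.

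FLT3 (chr13:28100577-28100826, minus strand): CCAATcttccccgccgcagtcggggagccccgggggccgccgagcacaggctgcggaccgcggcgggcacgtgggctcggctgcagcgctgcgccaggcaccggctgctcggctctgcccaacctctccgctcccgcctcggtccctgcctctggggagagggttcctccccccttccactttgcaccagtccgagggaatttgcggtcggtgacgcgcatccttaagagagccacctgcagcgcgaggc

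HHEX (chr10:92689705-92689954, plus strand): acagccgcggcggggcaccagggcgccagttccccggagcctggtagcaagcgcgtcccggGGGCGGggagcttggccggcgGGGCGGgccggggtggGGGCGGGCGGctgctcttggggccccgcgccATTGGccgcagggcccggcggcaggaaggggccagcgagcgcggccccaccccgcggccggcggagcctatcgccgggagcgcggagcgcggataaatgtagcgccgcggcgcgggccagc

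KIT (chr4:54657707-54657956, plus strand): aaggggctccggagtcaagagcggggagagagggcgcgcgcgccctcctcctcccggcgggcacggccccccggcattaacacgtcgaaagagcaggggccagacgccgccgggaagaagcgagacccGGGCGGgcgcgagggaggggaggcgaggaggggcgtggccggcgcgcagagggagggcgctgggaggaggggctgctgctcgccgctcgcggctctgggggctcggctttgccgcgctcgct

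All 3 were rich in G and C, with 72% in FLT3, 81.2% in HHEX and 76.4% in KIT, against a median of 58.0% over 35116 RefSeq promoters of the same length. They do not stand for all the genes. The entries of MEIS1 (59.6%) and CD34 (61.6%) were nearer that median, and those of GATA2 had 71.2% and 72.8%. HHEX had 4 GC boxes and 1 CCAAT box, with 2 of the GC boxes overlapping each other, KIT had 1 GC box, and FLT3 had 1 CCAAT box. The RefSeq table matched 7 of the 8 genes, all but SPI1, with 14 entries, of which 7 were for MEF2C. A GC box on either strand was in 4 of the 14 entries (28.6%), of CD34, GATA2, HHEX and KIT, and in 42.6% of all promoters. CCAAT was in 5 of them (35.7%) and in 32.0% of all promoters. A core motif of GATA factors (AGATAA) was in none of the 14 entries and in 9.17% of all promoters. TATAAA was in none of them and in 10.7% of all promoters. AGGAAG, an ETS core, was in 4 of the 14 entries (28.6%), of HHEX and MEF2C, and in 28.7% of all promoters. TGTGGT, a RUNX core, was in 1 of them (7.14%), that of MEIS1, and in 11% of all promoters. None of these motif counts, on 14 entries with 7 of MEF2C, was tested against the share over all promoters. MEF2C differed from the others in having A- and T-rich entries, down to 24.8% G and C, beside a GC-rich entry with 66.0%.

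None of the 28 regions had a peak in all 6 lines, whereas 22.6% of all merged regions did. A count of 0 in 28 allows a share of up to 10.7%, by a limit of 3 counts that covers counting error only, and the exact binomial 95% interval ends at 12.3%. Regions with a peak in 5 lines numbered 4, or 14.3% (exact binomial 95% interval 4.03% to 32.7%), against 6.53% of all regions. These 4 lay 1 each in the HHEX, GATA2, FLT3 and CD34 windows. Another 13 regions, 46.4% (27.5% to 66.1%), had a peak in 1 line only, beside 43.2% of all regions. At a −log10 p of at least 10 they were 13 of 21 (61.9%, 38.4% to 81.9%) beside 39.4%. With equal numbers of the strongest peaks from each list they were 12 of 22 (54.5%, 32.2% to 75.6%) beside 38.8%. Both intervals held the share over all regions. With windows extended by 25 kb they were 14 of 38 (36.8%) beside 43.2%. They were 7 of 20 (35.0%) beside 38.8% without CCRF-CEM, and 15 of 26 (57.7%) beside 42.2% without HBP-ALL. The exact binomial intervals cover counting error and treat neighbouring regions as independent.

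**Figure D1:**
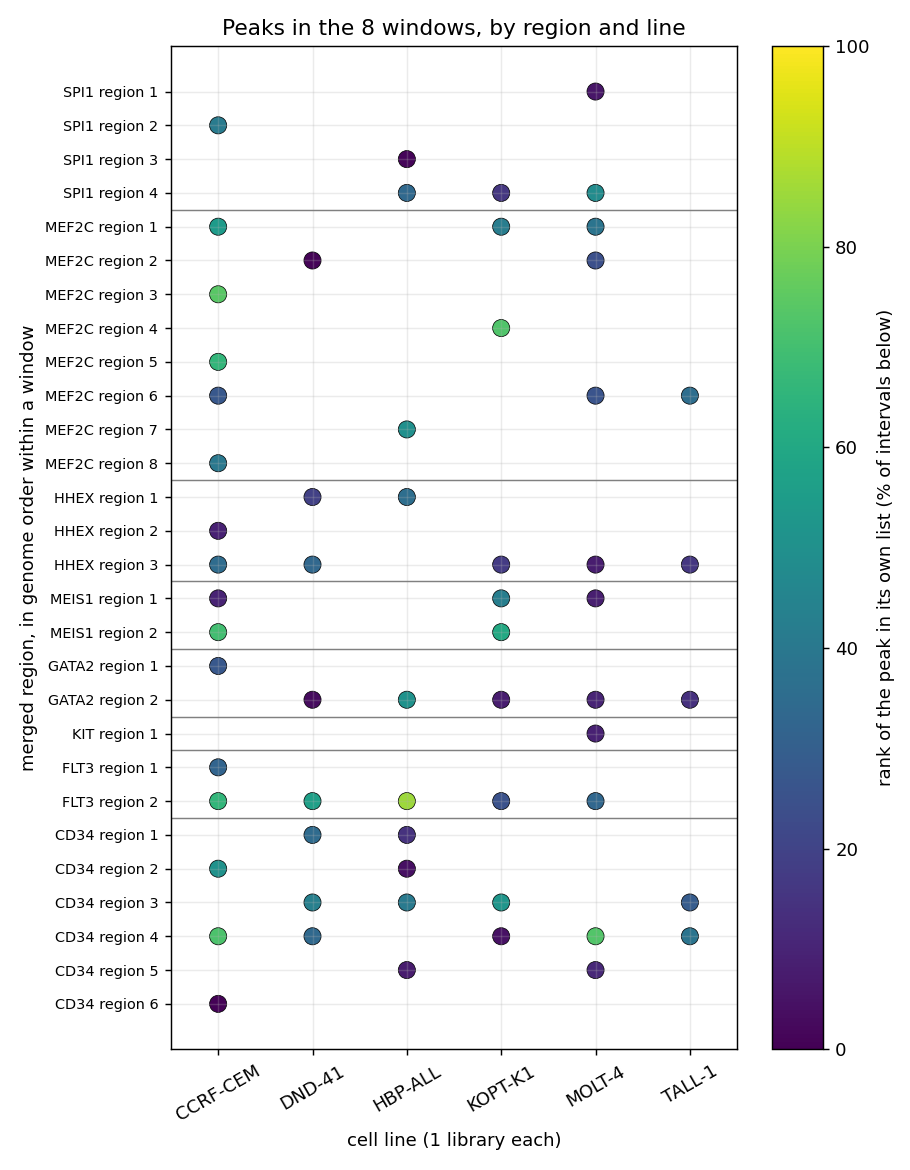
Rows are the 28 merged regions of the 8 windows, columns the 6 lines, and a point is a peak. Its colour gives the percent of intervals in that line's own list with a lower −log10 p; no row is filled in all 6 lines, and the brightest point is FLT3 region 2 in HBP-ALL, at 85.2.

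The peaks at these genes were mostly weak ones. For each peak a rank was taken as the percent of intervals in its own list with a lower −log10 p in the authors' list, so that 50 is the middle of a list. Only 14 of the 61 intervals ranked at 50 or above and 1 ranked at 75 or above, while 24 ranked below 25. The median rank was 33.4. Summit pileups, the numbers of tags stacked at the summit as recovered from the authors' values, ran from 6 to 46 with a median of 17. Over whole lists the median pileup was 20 in CCRF-CEM, 23 in MOLT-4, 24 in HBP-ALL, 25 in KOPT-K1, 26 in DND-41 and 29 in TALL-1. The lowest pileup of any listed peak was 6 to 9 depending on the line. Their median width was 371 bp, against list medians of 436 to 531 bp. The 4 regions with a peak in 5 lines had a median rank of 33.2 and a median pileup of 16, beside 43.9 and 22 over all regions with 5 lines. In the 13 regions with 1 line the medians were 31.7 and 14, beside 21.3 and 13 over all such regions.

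SPI1 had no peak in DND-41 or TALL-1 and had 1 or 2 regions in the other 4 lines. The region with most lines, SPI1 region 4 on chromosome 11 at 47421599 to 47422029, had pileups of 23 in MOLT-4, 17 in HBP-ALL and 12 in KOPT-K1, with ranks of 48.3, 33.6 and 15.7. Its summits lay within 169 bp of each other, and it ended 2.97 kb from the upper edge of the window, the side of the neighbouring genes SLC39A13-AS1 and SLC39A13 in RefSeq's gene order. The other 3 SPI1 regions had a peak in 1 line each. CCRF-CEM had a pileup of 19 at 47399852 to 47400259 (SPI1 region 2, rank 41.3). MOLT-4 had 10 at 47395670 to 47395992 (SPI1 region 1, rank 5.5), and HBP-ALL had 9 at 47416165 to 47416475 (SPI1 region 3, rank 1.2). No position in the SPI1 window was thus shared by more than 3 lines, and 2 of its 4 regions rested on peaks near the threshold.

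DND-41 and TALL-1 did have peaks just beyond the SPI1 window. The nearest region outside it, 4507 bp above its upper edge at 47429507 to 47430362, had a peak in all 6 lines. Pileups there were 90 in TALL-1, 75 in DND-41, 62 in HBP-ALL, 49 in CCRF-CEM, 47 in KOPT-K1 and 40 in MOLT-4. These lines without a peak in the window thus had the highest pileups just beyond it, on libraries with relative tag depths of 2.1 and 1.7, a scale from the lowest background of each list with CCRF-CEM set to 1. A further region in all 6 lines lay at 47447659 to 47448385, with pileups of 30 to 49.

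GATA2, a zinc finger factor needed by blood stem cells, had a single widely shared region. GATA2 region 2, on chromosome 3 at 128216397 to 128216918, had a peak in every line but CCRF-CEM, a set of lines found at 2.42% of all regions. Its pileup was 22 in HBP-ALL, 12 in TALL-1, 11 in MOLT-4 and 9 in both DND-41 and KOPT-K1. HBP-ALL ranked it at 51.0 and the other 4 lines at 2.9 to 13.7. With peaks of −log10 p of at least 10 only, HBP-ALL alone kept it. Summits were spread over 251 bp, the widest spread among the 28 regions, with MOLT-4 lowest at 128216518 and HBP-ALL highest at 128216769. CCRF-CEM had its only GATA2 peak elsewhere, 13825 bp lower at 128201986 to 128202571 (GATA2 region 1), with 2 summits, a pileup of 14 and a rank of 27.0. No other line had a peak there. CCRF-CEM and the other 5 lines therefore shared no GATA2 region.

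MEF2C, a MADS-box factor, had 8 regions over its 250 kb window, with counts by line from 1 to 5. CCRF-CEM had 5 of them, MOLT-4 had 3, KOPT-K1 had 2, and DND-41, HBP-ALL and TALL-1 had 1 each. Over all merged regions the shares were 55.4%, 47.3%, 44.8%, 44.3%, 54.5% and 40.7% in that order. The 5 of 8 in CCRF-CEM was near its share, and the other lines stood below theirs. On 8 regions this was not tested. In bases, CCRF-CEM peaks covered 2675 bp of the window and those of the other lines 237 to 766 bp. MEF2C regions 3, 5 and 8 had a peak in CCRF-CEM only, as had 16.0% of all regions. On chromosome 5, MEF2C region 3 spanned 88030007 to 88030345 and reached 44 tags (rank 74.2), and MEF2C region 5, at 88122956 to 88123371, had 36 (rank 65.7). MEF2C region 8, at 88178685 to 88180167, was the widest interval of the 61 at 1483 bp, with 3 summits and a highest pileup of 27. At each of these 3 regions CCRF-CEM was the single line with a peak.

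Shared MEF2C regions were fewer. MEF2C region 1, at 87986631 to 87987057, had pileups of 19 in CCRF-CEM, 19 in KOPT-K1 and 15 in MOLT-4, with summits within 37 bp. MEF2C region 6, at 88123874 to 88124139 and 502 bp above region 5, had 22 in CCRF-CEM, 17 in TALL-1 and 14 in MOLT-4. It was the only MEF2C region with a peak in TALL-1. MEF2C region 2, at 88025345 to 88025637, had 12 in MOLT-4 and 8 in DND-41, with summits 3 bp apart and a DND-41 rank of 0.9. KOPT-K1 alone had a peak at 88054522 to 88054821 (MEF2C region 4, pileup 29, rank 72.3), and HBP-ALL alone at 88129306 to 88129567 (MEF2C region 7, pileup 23, rank 49.9). The strongest MEF2C peaks of CCRF-CEM, KOPT-K1 and HBP-ALL were thus at 3 separate positions, each without a peak in any other line.

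CCRF-CEM also had more tags around its MEF2C peaks. The local background that the caller used, divided by the lowest background in the same list, was 6.88, 5.78, 5.78 and 6.38 at MEF2C regions 3, 5, 6 and 8 in CCRF-CEM, and 1.66 at region 1. Over all intervals of the CCRF-CEM list the median of this ratio was 2.34. In the other 5 lines it was 1.08 to 1.95 at their 8 MEF2C peaks, below their list medians of 2.1 to 2.67. At region 6, where 3 lines had a peak, the ratio was 5.78 in CCRF-CEM, 1.84 in MOLT-4 and 1.10 in TALL-1. Ratios of this size were not particular to MEF2C or to CCRF-CEM. Over the 16 intervals of the CD34 window they ran from 1.0 to 6.78. At CD34 region 4 the ratio was 6.78 in MOLT-4 and 6.0 in CCRF-CEM, and at CD34 region 3 it was 5.61 in KOPT-K1.

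**Figure D2:**
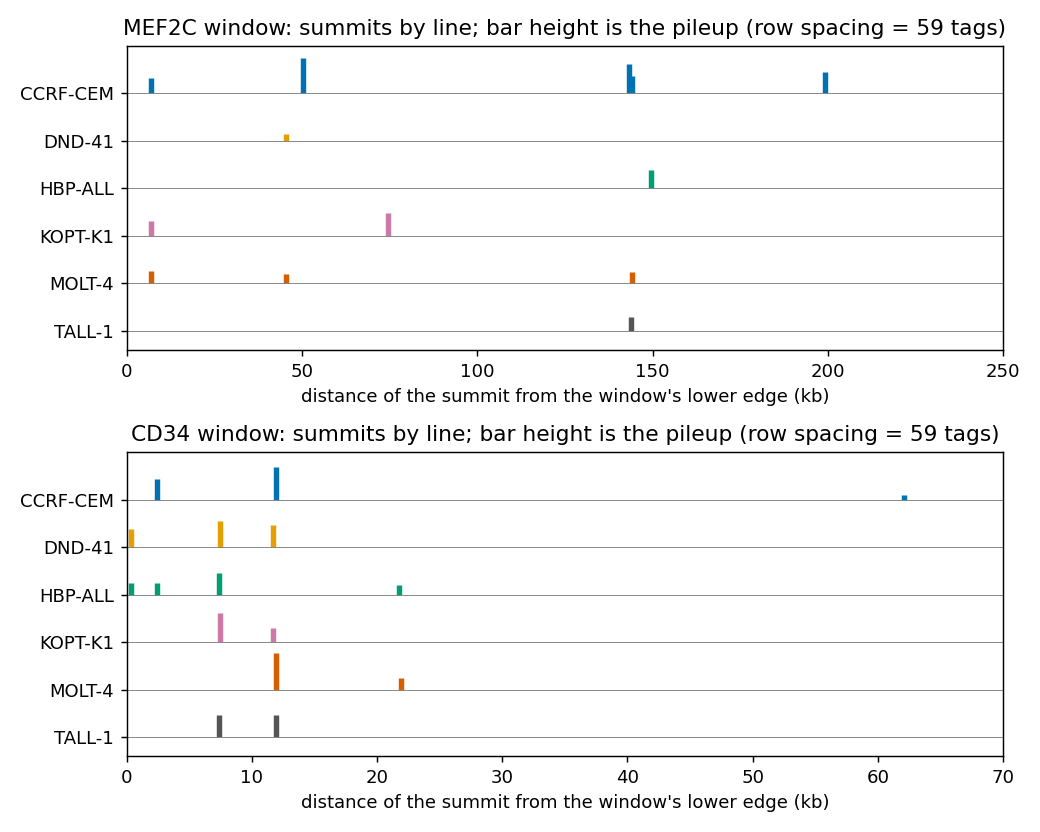
Each bar is a summit, placed by its distance in kb from the lower edge of the MEF2C window (top) or the CD34 window (bottom), with 1 row per line and its height proportional to the pileup in tags. CCRF-CEM has 5 bars in the MEF2C window against 1 to 3 in the other lines, and in the CD34 window all bars but 3 lie in the first 13 kb.

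The MEF2C window was cut across a denser stretch. Its first region began 6.63 kb inside the lower edge, and another 6 regions lay within 25 kb below that edge, on the side of GSCAR and MIR9-2HG in RefSeq's order. The closest of these, 299 bp outside, had pileups of 31 in HBP-ALL and 26 in CCRF-CEM. The strongest, at 87956464 to 87957381, had 81 in CCRF-CEM (rank 95.5) and 9 in MOLT-4 (rank 7.7). The region at 87976168 to 87976533, had a peak in every line but TALL-1, with pileups of 16 in DND-41 and 28 to 31 in the other 4. CCRF-CEM had a peak in 5 of these 6 regions and TALL-1 in 0.

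HHEX, a homeobox factor, had a peak in every line, but no region in all of them. HHEX region 3, on chromosome 10 at 94459189 to 94459659, had a peak in every line but HBP-ALL, a set of lines seen at 0.738% of all regions. Pileups were 17 in DND-41, 15 in CCRF-CEM, 14 in TALL-1, 13 in KOPT-K1 and 10 in MOLT-4, and ranks were 8.1 to 35.0. Relative tag depths were 1.7, 1, 2.1, 1.55 and 1.35 in that order, and pileups were not scaled for depth. HBP-ALL had its only HHEX peak 9360 bp below, in HHEX region 1 at 94449335 to 94449844, with a pileup of 16 (rank 35.6). DND-41 had a peak there too, with 13 (rank 19.5) and a summit 59 bp away. CCRF-CEM alone had a weak peak 420 bp above that region, at 94450265 to 94450571 (HHEX region 2, pileup 9, rank 9.1). KOPT-K1, MOLT-4, HBP-ALL and TALL-1 had 1 HHEX region each, and DND-41 and CCRF-CEM had 2. At a −log10 p of at least 10, HHEX region 3 was left in CCRF-CEM and DND-41 only.

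MEIS1, a homeobox partner of HOX proteins, had peaks in CCRF-CEM, KOPT-K1 and MOLT-4 and none in DND-41, HBP-ALL and TALL-1. Both of its regions lay together on chromosome 2, 7 bp apart, in a 190 kb window with no other peak. MEIS1 region 2, at 66661741 to 66662594, had pileups of 34 in CCRF-CEM (rank 69.7) and 30 in KOPT-K1 (rank 60.5), with summits 65 bp apart, and no peak in MOLT-4. MEIS1 region 1, at 66661263 to 66661733, had 24 in KOPT-K1, 15 in CCRF-CEM and 14 in MOLT-4, with ranks of 42.3, 9.4 and 8.3. CCRF-CEM and KOPT-K1 thus had a strong and a weaker summit side by side, and MOLT-4 the weaker alone. When intervals within 200 bp were merged the 2 regions became 1. The next region above lay 313610 bp away and the next below 99069 bp away.

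KIT had the fewest peaks of the 8 genes. A single interval, on chromosome 4 at 55523970 to 55524231, appeared in MOLT-4, with a pileup of 12, a fold of 4.29 in the authors' list and a rank of 9.2. The other 5 lines had no interval in the 130 kb window. The peak was lost with a −log10 p minimum of 10 and with equal numbers of the strongest peaks per list. Just outside the window, 218 bp below its edge, a region at 55499318 to 55499782 had pileups of 17 in DND-41 and 15 in MOLT-4. The window held 0.769 regions per 100 kb, beside 1.31 over the span of chromosome 4.

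FLT3 held the peak with the highest rank in the 8 windows. By pileup, with 38 tags, it stood below 46 and 40 at CD34 region 4 and 44 at MEF2C region 3. FLT3 region 2, on chromosome 13 at 28674383 to 28675094, had pileups of 38 in HBP-ALL, 25 in CCRF-CEM, 24 in DND-41, 14 in MOLT-4 and 12 in KOPT-K1. Their ranks were 85.2, 66.0, 56.5, 33.0 and 25 in that order, so the pileups and the within-list ranks gave the lines in the same order. These pileups were not scaled for relative tag depth, which was 1.93 in HBP-ALL and 1 in CCRF-CEM. TALL-1 had no peak at FLT3 region 2, a pattern shared with 1.57% of all regions. Its nearest interval lay 37106 bp away. That interval belonged to a region 17078 bp above the window, at 28712078 to 28713949, with a peak in all 6 lines. The region lay on the side of PAN3-AS1 and PAN3 in RefSeq's gene order, and its gene was not determined. There TALL-1 had the highest pileup, 89, against 29 to 38 in the other 5 lines. TALL-1 thus had a tall peak beside the window and none in it. The other FLT3 region, at 28668005 to 28668671, was in CCRF-CEM alone (FLT3 region 1, pileup 14, rank 31.7).

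**Figure D3:**
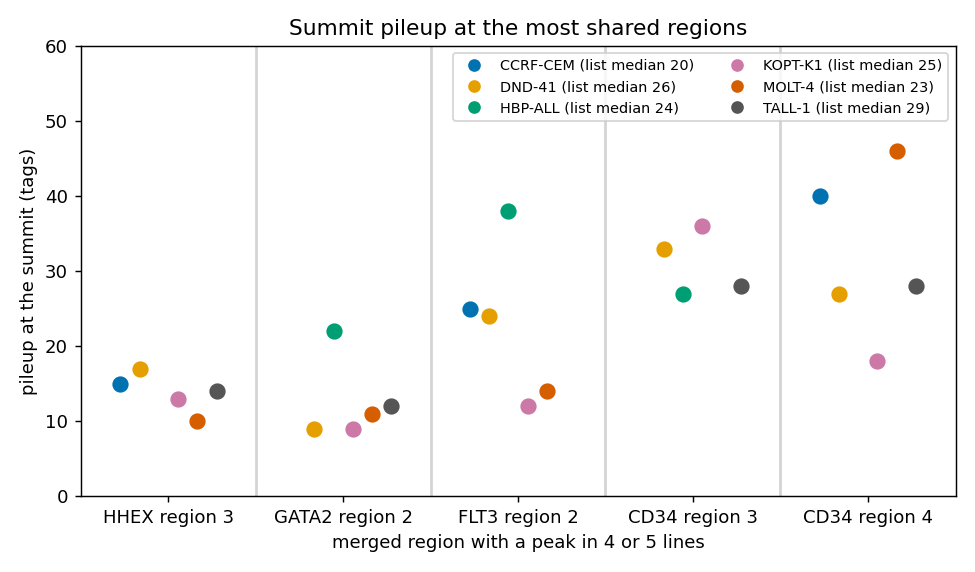
Points are summit pileups in tags at the 5 regions with a peak in 4 or 5 lines, coloured by line, with each list's median pileup in the key. FLT3 region 2 runs from 12 in KOPT-K1 to 38 in HBP-ALL, and HHEX region 3 from 10 to 17; a line without a point had no peak.

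CD34 was the window with the densest regions and the most intervals, 16 in 6 regions, and it had peaks in every line. It held 8.57 regions per 100 kb, beside 1.5 over chromosome 1. The first 5 regions lay together at the lower edge, up to 208057171, on the side of MIR29B2CHG and CD46 in RefSeq's gene order, and the first began 0.15 kb inside that edge. Whether they lie in CD34 or in its neighbour was not determined. CD34 region 4, at 208046399 to 208047099, had pileups of 46 in MOLT-4, 40 in CCRF-CEM, 28 in TALL-1, 27 in DND-41 and 18 in KOPT-K1. Their ranks ran from 72.9 in MOLT-4 to 4.3 in KOPT-K1, and HBP-ALL had no peak, its nearest being 3794 bp away. CD34 region 3, at 208042044 to 208042715, had 36 in KOPT-K1, 33 in DND-41, 28 in TALL-1 and 27 in HBP-ALL, and no peak in CCRF-CEM or MOLT-4. The lines with the tallest peaks at region 4 were thus the lines without a peak at region 3, and KOPT-K1 had its highest CD34 peak at region 3 and its lowest at region 4. DND-41 stood at 33 and 27 at regions 3 and 4, and TALL-1 at 28 in both.

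The remaining CD34 regions had a peak in 1 or 2 lines. CD34 region 2, at 208037247 to 208037642, had 26 in CCRF-CEM and 15 in HBP-ALL. CD34 region 1, at 208035150 to 208035514, had 22 in DND-41 and 15 in HBP-ALL. CD34 region 5, at 208056524 to 208057171, had 14 in MOLT-4 and 12 in HBP-ALL, at ranks of 11 and 7.6. HBP-ALL had a peak in 4 of the 6 regions, with ranks of 4.2 to 40.8, and DND-41 and CCRF-CEM in 3. At a −log10 p of at least 10, and with equal numbers of the strongest peaks, HBP-ALL had 1 and DND-41 kept 3. CD34 region 6, at 208097033 to 208097343 and 39861 bp above the others, was a CCRF-CEM peak with a pileup of 6, the lowest in its list, and a rank of 0.5.

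**Figure D4:**
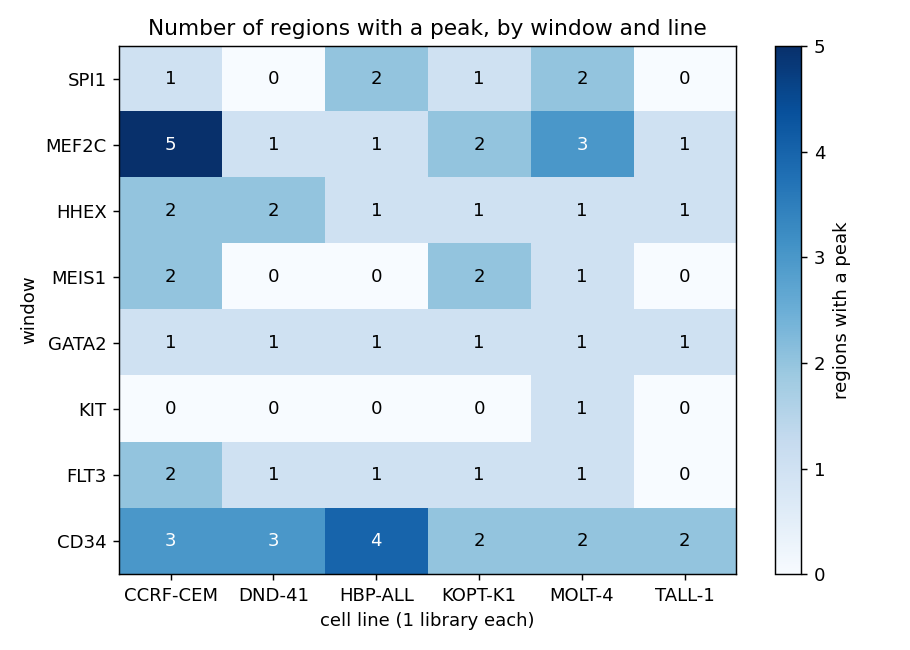
Cells give the number of merged regions with a peak for each window (rows) and line (columns). CCRF-CEM has 5 in the MEF2C window, MEIS1 and SPI1 have 0 in DND-41 and TALL-1, and KIT has 1 in MOLT-4 only.

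Across the 8 windows MOLT-4 had a peak in all 8, CCRF-CEM and KOPT-K1 in 7, HBP-ALL in 6, DND-41 in 5 and TALL-1 in 4. DND-41 and TALL-1 both lacked any peak at SPI1, MEIS1 and KIT, and TALL-1 also at FLT3. The MEF2C, HHEX, GATA2 and CD34 windows had a peak in every line. Both counts changed with stricter lists. At a −log10 p of at least 10, CCRF-CEM had a peak in 7 windows, HBP-ALL in 6, MOLT-4 in 4, DND-41 and KOPT-K1 in 3 and TALL-1 in 2. With lists cut to equal numbers of peaks, the count was 7 in CCRF-CEM, 6 in HBP-ALL and KOPT-K1, 4 in MOLT-4 and TALL-1 and 3 in DND-41, so MOLT-4 did not lead in either case. The CD34 window kept a peak in every line in both cases, at regions near its lower edge whose gene was not determined. The MEF2C window had 5 lines in both, HHEX had 3 and 5, and GATA2 had 2 and 3. Regions per 100 kb were above those of the chromosome at SPI1 (5.71 against 1.52), HHEX (5.45 against 1.39), GATA2 (3.64 against 1.35) and MEF2C (3.20 against 1.31), near it at FLT3 (1.43 against 1.37) and below it at MEIS1 (1.05 against 1.44). Chromosome values were taken over the whole span from first to last region, whereas the windows were placed around genes. They were not compared with windows around other genes, and the counts per window are small.

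The lines also differed in how much of the set they had. CCRF-CEM had a peak in 16 of the 28 regions (57.1%, exact binomial 95% interval 37.2% to 75.5%), close to its 55.4% of all merged regions. MOLT-4 had 12 (42.9%, 24.5% to 62.8%) beside 47.3%. KOPT-K1 and HBP-ALL had 10 each (35.7%, 18.6% to 55.9%), beside 44.8% and 54.5%. DND-41 had 8 (28.6%, 13.2% to 48.7%) beside 44.3%. TALL-1 had 5 (17.9%, 6.06% to 36.9%) beside 40.7%, a share above its interval. In the other 5 lines that share lay inside the interval, but this did not hold for stricter lists. At a −log10 p of at least 10 the share over all regions also lay above the interval in DND-41 (23.8% beside 48.8%), HBP-ALL (28.6% beside 57.5%), KOPT-K1 (23.8% beside 47.8%) and MOLT-4 (19.0% beside 48.5%). With equal numbers of the strongest peaks it did so in DND-41, HBP-ALL and MOLT-4 (27.3% beside 50.7% in each) as in TALL-1 (22.7% beside 50.4%). Without CCRF-CEM in the merge the TALL-1 share was 25% (8.66% to 49.1%) beside 48.5%, inside its interval. None of the 5 TALL-1 regions was in TALL-1 alone, beside 1490 of its 16338 regions over the whole series. TALL-1 had the deepest library on the tag scale (2.1 with CCRF-CEM set to 1) and the fewest intervals, 16507, and CCRF-CEM the shallowest and the most, 22367.

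**Figure D5:**
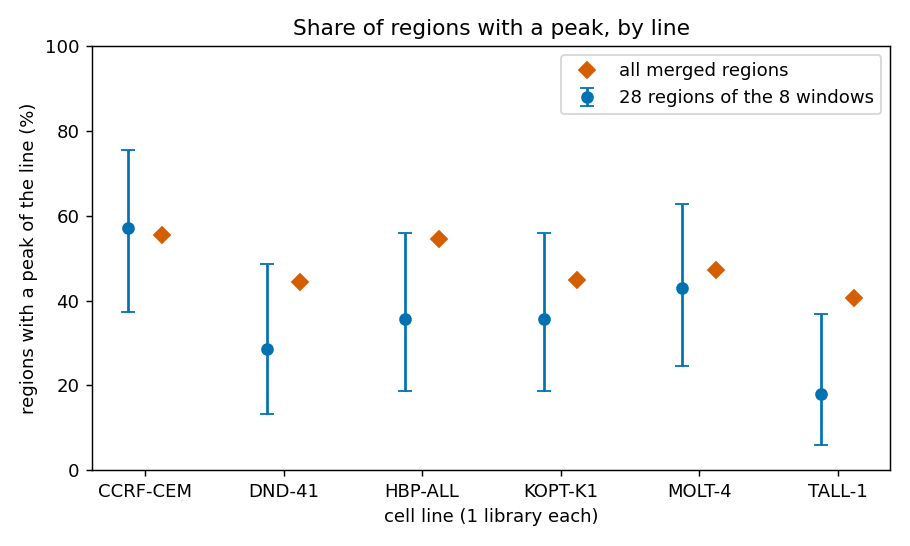
Circles give the percent of the 28 regions with a peak of each line, with exact binomial 95% intervals as bars, and diamonds the percent of all merged regions. TALL-1 stands at 17.9% against 40.7%, and in the other 5 lines the bar spans the diamond.

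Of the 13 regions in a single line, 8 were in CCRF-CEM, spread over 6 windows, 2 each in HBP-ALL and MOLT-4, 1 in KOPT-K1 and 0 in DND-41 and TALL-1. CCRF-CEM led over the whole series too, with 6420 of the 17315 regions in a single line (37.1%, beside 61.5% here). Of those 17315, HBP-ALL had 26.9%, MOLT-4 10.5%, KOPT-K1 8.65%, TALL-1 8.61% and DND-41 8.25%. Counts of 0 to 2 among 13 were not tested against these shares. The pair with most regions in common was KOPT-K1 and MOLT-4, with 7, which were 70.0% of the KOPT-K1 regions and 58.3% of those of MOLT-4, beside 76.0% and 72% over all merged regions. CCRF-CEM shared 6 with each of them and only 2 with HBP-ALL, 12.5% of its own and 20.0% of the HBP-ALL regions, beside 57.0% and 57.9% over all merged regions. TALL-1 shared 4 of its 5 regions (80.0%) with each of DND-41, KOPT-K1 and MOLT-4, beside 76.3%, 74.9% and 76.6% over all its regions. Some sets of lines recurred between genes. CCRF-CEM, KOPT-K1 and MOLT-4 alone had a peak at both MEF2C region 1 and MEIS1 region 1, a set found at 0.534% of all regions. DND-41 and HBP-ALL alone had a peak at both HHEX region 1 and CD34 region 1, a set found at 0.643%. Every line but HBP-ALL had a peak at both HHEX region 3 and CD34 region 4, a set found at 0.738%. None of these sets recurred at a −log10 p of at least 10. There MEIS1 region 1 was left in KOPT-K1 only, HHEX region 1 in HBP-ALL only and CD34 region 1 in DND-41 only. HHEX region 3 was left in CCRF-CEM and DND-41 only.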

How the data were processed

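ATAC-seq libraries of 6 T-ALL lines, 1 per line, with paired-end reads of 150 bp per the labels, were analysed from peak lists. The submitters' processing notes name hg19, MACS2 2.1.1.2016030, Bowtie2, Picard and SAMtools; for settings, any Tn5 shift and read totals they give nothing, and these are not given in the sources used. The deposited lists, read as narrowPeak, hold for each summit a score, a −log10 p-value and q-value, and a fold over local background. Lines sharing an interval were joined, keeping the strongest summit, on chromosomes 1 to 22 and X, and intervals were merged across lines at 1 bp.

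Pileups were recovered as whole numbers t such that the authors' fold equals (t + 1) / (c + 1), c being the background, and their p-value matches the upper Poisson tail beyond t to within 0.001 in −log10 p. This worked for 99.7% to 99.8% of summits per list and for all 61 intervals described. Pileups up to 249 were searched. Tag depth was compared through each list's lowest background per base of its narrowest interval. Recovery and merging were tested on simulated data with regions set far apart. Regions close together, and the lowest pileups and backgrounds of these lists, were not simulated. Shares have Clopper-Pearson intervals. With 1 library per line no test was possible, and the planned promoter and marker counts were not made, for want of an hg19 annotation.

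All 8 genes are named, with each region in 5 lines, the highest-ranking region of a single line, and here every other region too. The genes, windows, lists and motifs were chosen with earlier results of these data known. Alternatives changed the merging, the threshold, the windows and the lines merged. Scripts used matplotlib 3.10.9, scipy 1.17.1, pandas 2.3.3 and numpy 2.4.6 under Python 3.11.15.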

Additional observations from a re-analysis of the deposited data

How the results depend on the processing

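No paired analysis was possible because each line has 1 library and no test was made. Taking summits inside the windows, merging within 200 bp, or joining at 50% of the shorter interval moved none of the leading values beyond 1.5 times or their counting interval. Leaving out CCRF-CEM took the regions with a peak in 1 line only from 13 to 7 of 20 (35.0%, beside 38.8% of all regions). Leaving out HBP-ALL took them to 15 of 26 (57.7%, beside 42.2% of all regions). These counts, and all of the merge without HBP-ALL, were chosen after seeing the data. The other leading values moved no further than that limit in either case, and the count in all 6 lines has no value there. With windows extended by 25 kb, 3 of 38 regions had a peak in all 6 lines, all 3 outside the original windows of SPI1 and FLT3. At a −log10 p of at least 10 the MOLT-4 share fell to 19.0%, beside 48.5% of all regions, and CCRF-CEM kept 61.9%; 21 regions were left. With equal numbers of the strongest peaks TALL-1 stood at 22.7% beside 50.4%. In both cases the SPI1 regions fell from 4 to 2 and KIT lost its single region. Without CCRF-CEM the MEF2C regions fell from 8 to 5, the GATA2 regions from 2 to 1 and the FLT3 regions from 2 to 1. Stricter lists or leaving out a line entered fewer intervals, and extending the windows entered wider ones. What caused each change was not tested. Of the 48 counts by gene and line, 21 moved past 1.5 times at the stricter minimum and 14 with equal numbers of peaks. Most of the 48 counts were 0, 1 or 2. A missing peak is a call below the authors' threshold and no measurement of closed chromatin.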

Other observations

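Outside the windows, the 10 regions within 25 kb of an edge had a median pileup of 32 and a median rank of 63.5 over their 37 intervals, against 17 and 33.4 inside. Of these 10 regions, 6 lay beside MEF2C, 2 beside SPI1 and 1 each beside FLT3 and KIT. The HHEX, MEIS1, GATA2 and CD34 windows had none, so the medians do not describe their surroundings. The 2 beside SPI1 and 1 beside FLT3 had a peak in all 6 lines, and CCRF-CEM reached a pileup of 81 at the region farthest below MEF2C. Around that edge the CCRF-CEM local background was high as well, at 10.4 and 12.0 times the lowest of its list at 87970060 to 87971111 and 87971704 to 87972103 on chromosome 5. At the former, MOLT-4 stood at 4.02 times, with a pileup of 21 against 45 in CCRF-CEM, and no other line had a peak. Beside FLT3, TALL-1 had a background of 9.83 times its list's lowest under its pileup of 89, and the other 5 lines had 4.33 to 5.35 times. These values are descriptions of single libraries.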
